A study of Mus musculus with 68 samples.

Results

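The genes described here are 40 ribosome biogenesis factors, nucleolar proteins that make or process ribosomal RNA, read in 68 single cells of the developing mouse cerebral cortex. The list was chosen by name, and every probe set that the platform annotation assigned to one of them alone was taken, with older symbols matched to newer ones. Of the 40 genes, 39 had a probe set of their own, 79 probe sets in all, and 38 genes had at least 1 probe set past the filter on low signals, against 10789 genes past it on the whole array. Mrto4, a factor of large subunit assembly, was left out because its only probe set is also assigned to other genes. The only probe set of Nop58, a core protein of box C/D particles, never reached the filter's level, so no value is given for it. "Members" below means the 38 genes with values.

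Ribosomes are built mostly in the nucleolus. RNA polymerase I transcribes the ribosomal RNA precursor there, small nucleolar ribonucleoproteins (snoRNPs) of the box C/D and box H/ACA kinds guide its methylation and pseudouridylation, and large assemblies of proteins fold and cut it into the small and the large subunit. Growing and dividing cells, among them the progenitors of the early cortical wall, are known for high production of these factors, and MYC family proteins are known activators of many of their genes.

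All cells came from CD1 mice and were picked by hand from the dorso-lateral cerebral wall, and each amplified cDNA was hybridized to 1 Affymetrix mouse genome array. The groups were 30 cells of embryonic day 11 (E11), 28 cells of the ventricular and subventricular zones of E16, 3 cells of E12, 3 cells of neurospheres grown from E11 wall for 3 days in vitro with FGF2 and EGF, and 4 cells of E14 from walls into which the plasmids pCAG-NICD and pEF-p18 had been electroporated 3 days earlier, at E11. The last were picked for green fluorescence from an EGFP plasmid given with the other plasmids. The E12, neurosphere and NICD/p18 cells are labelled apical progenitors (APs), whereas the labels of the E11 and E16 cells give no cell type. NICD is the intracellular domain of Notch, which keeps cells in the AP state, and p18 is an inhibitor of cyclin-dependent kinases. The plasmids were given together, so the effects of NICD and of p18 cannot be told apart, and whether each picked cell held both was not measured here. These cells also differ from the E12 APs in age. The E11 and E16 cells had been chosen in the study from a larger pool as progenitors by quantitative PCR of marker genes, so their shares say nothing of the tissue. The E12 APs were chosen in the same way, as positive for the cell cycle gene Ki67 and negative for Eomes. The study describes its neurosphere APs as Ki67 positive and its NICD/p18 APs as without Ki67 expression.

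Cells of E11 and E16 were sorted into classes by clustering each stage on lists of AP, intermediate progenitor (IP) and neuron markers, and the classes are named for the list that stood highest in them. E11 held 23 AP-like, 2 IP-like and 4 neuron-like cells, and E16 held 17 AP-like, 9 IP-like and 2 neuron-like cells. The cell 31i of E11, which the study dropped for low quality, was left out. The level used throughout is the median signal of the phe spike, a bacterial RNA added at 20 copies per cell, which was 842 after quantile normalization, or 9.72 on the log2 scale. No array was a copy of another in the 2278 pairs. Some cells stood apart. The NICD/p18 cells M5K and M6C had mean log2 signals over the neuron marker list of 9.76 and 9.57, against 6.86 in M5A and 4.48 in M6H, although all 4 are labelled APs, and their mean over the AP list lay between 10.32 and 10.98. Of the E12 APs, replicate 1 had Eomes, which encodes the IP marker Tbr2, at 11.75, above the phe level, against 1.27 and 2.52 in the other E12 cells. The E11 neuron-like cell 45O had a mean over the neuron list of 8.19, below its mean over the IP list of 10.70, and Eomes at 13.23, so its markers go against the name of its class. In 1 E11 AP-like cell, 42P, 4 of the 4 blood genes past the filter reached the phe level, and in 1 E16 AP-like cell, 81E, 2 of the 2 microglia genes did. Of the vessel genes 1 reached it in 1 NICD/p18 cell, and of the mesenchyme genes 1 in 2 E16 AP-like cells. Comparisons that hold 42P, 81E, M5K, M6C or E12 replicate 1 are given with and without them. Because each array is 1 cell and no embryo is named, each group counts as 1 sample. No test was made, and differences are differences of means beside the SD between cells.

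By the median, the E11 AP-like cells had more ribosome biogenesis factors at or above the phe level than the other E11 and E16 classes. The number of members at or above it ran from 11 to 25 in the 23 E11 AP-like cells, with a median of 20. The 17 E16 AP-like cells had 9 to 18 with a median of 14, and the 9 E16 IP-like cells 7 to 21 with a median of 16. The 4 E11 neuron-like cells had 10, 9, 9 and 9, the 2 E11 IP-like cells 7 and 11, and the 2 E16 neuron-like cells 9 and 13. These ranges overlap between the AP-like classes. The number of all genes at or above the phe level was almost the same in each, with a median of 2796 genes in E11 AP-like and 2774 in E16 AP-like cells.

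The mean log2 signal over the members gave a similar order. It was 8.74 ± 0.72 (SD, n = 23 cells) in E11 AP-like, 7.41 ± 0.89 (SD, n = 9) in E16 IP-like and 7.29 ± 0.62 (SD, n = 17) in E16 AP-like cells. It was 6.25 ± 0.42 (SD, n = 2) in E16 neuron-like, 6.13 ± 1.02 (SD, n = 2) in E11 IP-like and 5.84 ± 1.04 (SD, n = 4) in E11 neuron-like cells. The step from E11 AP-like to the 2 large E16 classes exceeded the SD between cells. E16 IP-like and AP-like cells differed by less than their SD, and so did the 3 smallest classes among themselves. In the arrays scaled separately by the depositors, the mean was 8.78 ± 0.55 (SD, n = 3) in E12 APs, 7.55 ± 1.25 (SD, n = 3) in neurosphere APs and 6.07 ± 0.76 (SD, n = 4) in NICD/p18 APs.

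**Figure D1:**
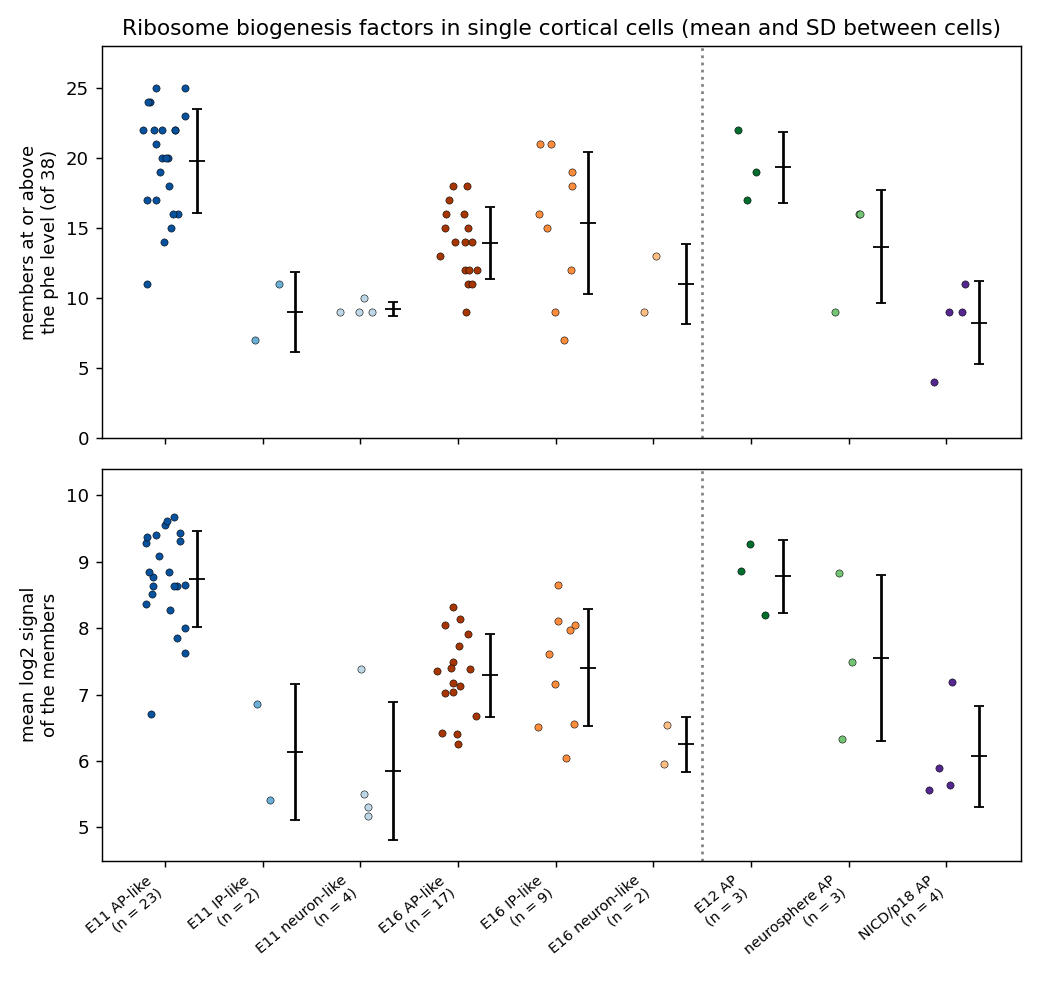
Each point is 1 cell. The upper panel gives the number of the 38 members at or above the phe level and the lower panel their mean log2 signal, with the mean and SD between cells beside each class. The dotted line separates the E11 and E16 arrays from the 10 arrays with another scaling. E11 AP-like cells centre near 20 members and E16 AP-like cells near 14. Among the 10 arrays with another scaling, NICD/p18 APs centre near 9.

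Between E11 and E16, AP-like cells had lower mean signals for most factors. The difference of means, E16 minus E11, was below 0 for 35 of the 38 members, and its median over the members was -1.44 on the log2 scale, against -0.10 over all 10789 genes. A member was counted as lower or higher where the means differed by at least 1 on the log2 scale and the higher mean reached the phe level. By that rule 9 members were lower in E16 and 1 was higher, where 4.33% of all genes were lower and 2.22% higher. Only 13 members had a mean at the phe level in either class, and 9 of these 13 were lower, against 27.6% of all genes with such a mean. With the median over cells in place of the mean 10 members were lower, against 5.44% of all genes, but only 4 of the 9 stayed among them, namely Pno1, Ddx21, Nhp2 and Npm1. Nop10, the member that was higher, was then no longer counted.

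Among the members of the RNA polymerase I machinery, Polr1c, a subunit shared by RNA polymerases I and III, was the one counted. Its log2 signal ran from 3.86 to 12.52 in E11 AP-like cells with a median of 10.87, and from 2.18 to 11.56 in E16 AP-like cells with a median of 10.09. The ranges overlapped widely. The difference of means was -1.80, the E11 mean lying 1.90-fold above the phe level and the E16 mean, 8.84, under it. Polr1c was not among those of the 9 that stayed counted with medians. It reached the phe level in 20 of 23 E11 cells (87.0%, exact 95% interval 66.4 to 97.2) and in 9 of 17 E16 cells (52.9%, 27.8 to 77.0). These intervals, like those below, cover counting error only and treat cells as independent draws. Since no embryo is named, they do not measure a difference between stages or classes. The largest subunit Polr1a (-1.84), the second largest Polr1b (-2.35), the subunit Polr1e (-0.10) and Tcof1 (-1.82), the treacle protein that helps to load polymerase I on ribosomal DNA, had no mean at the phe level in either class.

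Of the nucleolar chaperones and helicases, Npm1, Ddx21 and Gnl3 were lower in E16. Npm1 encodes nucleophosmin, an abundant histone and ribosome chaperone, and it was at the phe level in each of the 68 cells. In E11 AP-like cells its log2 signal lay between 12.75 and 13.88 with a median of 13.56, and in E16 AP-like cells between 10.91 and 13.50 with a median of 12.33. The upper part of the E16 range overlapped the E11 range, and the difference of means of -1.10, a 2.14-fold lower signal, was larger than the SD between cells of 0.30 in E11 and 0.70 in E16. Ddx21, an RNA helicase of polymerase I transcription and processing, had means of 8.24 ± 2.50 (SD, n = 17) in E16 and 9.96 ± 1.69 (SD, n = 23) in E11 and reached the phe level in 6 of 17 against 18 of 23 cells. Gnl3, the GTP-binding protein nucleostemin, differed by -1.19 with an SD of 2.75 in E16 and 2.62 in E11, and reached the phe level in 10 of 17 against 15 of 23 cells. Ncl, or nucleolin, was split within both classes, from -1.05 to 12.13 in E11 and from -0.02 to 11.85 in E16, and its difference of -1.21 was below its SD of 4.52 in E16 and 4.07 in E11. Nolc1, which shuttles snoRNPs to the nucleolus, did not reach the phe level by its mean in either class and differed by -1.63.

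By the probe sets that stand for them, 2 proteins of the box C/D snoRNP, Fbl and Nop56, were at the phe level in every E11 AP-like cell. Fbl, the methyltransferase fibrillarin, ran from 10.49 to 12.70 with a median of 11.79 in E11 AP-like cells, and from 2.07 to 12.24 with a median of 10.96 in E16 AP-like cells. It reached the phe level in 23 of 23 E11 cells and 14 of 17 E16 cells. Nop56, which holds the particle together, ran from 10.27 to 12.84 with a median of 11.79 in E11 and from 1.72 to 12.01 with a median of 10.81 in E16, and reached the phe level in 23 of 23 and 15 of 17 cells. Most E16 cells thus overlapped the E11 cells, and a few lay far below. The differences of means were -1.82 for Fbl and -1.66 for Nop56, or 3.54-fold and 3.16-fold, while the differences of medians were -0.83 and -0.98. The SD between cells was 0.50 for Fbl and 0.66 for Nop56 in E11, against 2.66 and 2.43 in E16. The second probe sets of these genes were less even in E11, at the phe level in 19 of 23 cells for Fbl and in 13 of 23 for Nop56. Rrp9, which binds the U3 snoRNA, had no mean at the phe level in either class and differed by -0.55.

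The 4 proteins of the box H/ACA snoRNP did not go one way. Dkc1, the pseudouridine synthase dyskerin, was at the phe level in 21 of 23 E11 and 12 of 17 E16 AP-like cells, with a difference of means of -1.23 and of medians of -0.55. Nhp2, which binds the RNA, differed by -1.25, with medians of 12.63 and 11.31, and was at the phe level in 21 of 23 and 15 of 17 cells. Gar1 had means of 9.87 ± 2.03 (SD, n = 17) in E16 and 10.05 ± 1.19 (SD, n = 23) in E11, a difference of -0.18 that was smaller than either SD. Nop10, the smallest of these proteins, was higher in E16 by 1.04, a 2.06-fold difference of means. Nop10 signals lay between 7.39 and 13.35 in E16 with a median of 12.15, and between 3.90 and 12.89 in E11 with a median of 11.91. The medians thus differed by 0.24, and the difference of means was smaller than the SD of 2.47 in E11 and was no longer counted without the cells 42P and 81E.

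All 10 members of the small subunit processome, the assembly that folds and cuts the precursor of the 18S RNA, had lower means in E16 AP-like cells, with a median difference of -2.57. Of these members Imp3 alone had a mean at the phe level in either class, and it differed by -0.15, so no member of the assembly was counted. The largest difference was that of Wdr75, at -4.20, with 12 of 23 E11 cells and 4 of 17 E16 cells at the phe level. Others were Wdr36 (-2.90), Utp18 (-2.75), Nop14 (-2.64), Wdr43 (-2.58), Utp15 (-2.56), Heatr1 (-1.88), Imp4 (-0.88) and Utp20 (-0.23). The means of these 9 members lay under the phe level in both classes, so the values are given as sizes only.

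The largest counted difference was that of Pno1, a KH-domain protein of late small subunit maturation that works with the nuclease Nob1. Its log2 signal ran from 5.98 to 11.78 with a median of 10.79 in E11 AP-like cells, and from -0.06 to 9.87 with a median of 8.19 in E16 AP-like cells. Pno1 reached the phe level in 17 of 23 E11 cells (73.9%, exact 95% interval 51.6 to 89.8) and in 1 of 17 E16 cells (5.88%, 0.149 to 28.7). The classes overlapped below that level. The difference of means was -3.33, the E11 mean lying 1.49-fold above the phe level and the E16 mean under it. That difference was larger than the SD between cells of 3.04 in E16 and 1.44 in E11. Nob1 itself differed by -0.34 and Rrp12, an exporter of small subunits, by -2.57, both with means under the phe level.

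Of the members of large subunit assembly, 6 of 8 had lower means in E16 and none was counted. Rrs1, which brings the 5S particle to the large subunit, differed by -0.98 and was at the phe level in 15 of 23 E11 and 8 of 17 E16 AP-like cells. Nip7 and Wdr12, an export-linked factor and a partner of Pes1 and Bop1, each differed by -2.81, while Nop2, a ribosomal RNA methyltransferase, differed by -1.04, Nop16 by -0.84 and Ebna1bp2 by -0.63. Pes1 and Bop1, which form the PeBoW complex with Wdr12, had higher means in E16 by 0.88 and 0.40. The other probe set of Bop1 differed by -0.31. All 3 subunits had means under the phe level in both classes, so these values too are given as sizes only. Pes1 was at the phe level in 1 of 23 E11 and 5 of 17 E16 cells, and Bop1 in 5 of 23 and 7 of 17.

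**Figure D2:**
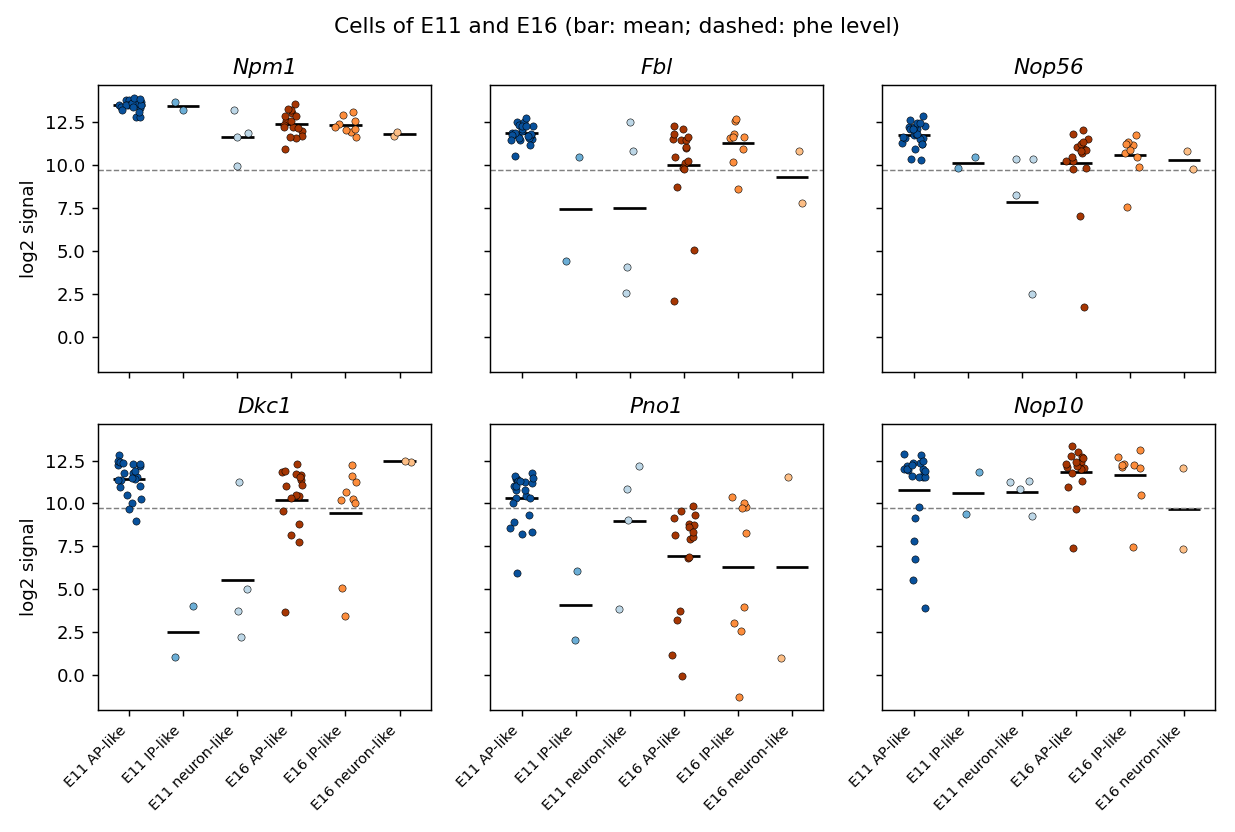
Log2 signal of 6 members in each E11 and E16 cell, with the mean of the class as a bar and the phe level dashed. Npm1 is narrow in both AP-like classes and lower in E16. Fbl and Nop56 are narrower in E11 than in E16 AP-like cells, Pno1 is above the phe level in 17 of 23 E11 but 1 of 17 E16 AP-like cells, and the 2 E16 neuron-like cells carry Dkc1 at 12.42 and 12.48.

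Of the 64 probe sets of members past the filter, 56 had a lower mean in E16 AP-like cells, and so did 16 of the 18 with a mean at the phe level. Of the 21 members with several such probe sets, 17 had all of them on 1 side. The second probe sets of Fbl (-1.43), Nop56 (-2.16), Nhp2 (-2.67), Npm1 (-1.72), Polr1c (-1.32) and Ddx21 (-1.57) were lower as well, and that of Nop10 was higher by 0.88. The share of cells at the phe level was lower in E16 for 32 members, higher for 5 and equal for 1.

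Array brightness and the cell cycle moved with stage. The mean of the deposited signals after trimming 2% at each end had a median of 195 in E11 AP-like arrays (range 67.4 to 298) and of 121 in E16 AP-like arrays (69.4 to 236). Across cells the log2 of this brightness and the mean of the members had a Pearson r of 0.60 over the 23 E11 AP-like cells and of 0.49 over the 17 E16 AP-like cells, each set sharing stage and class. In the 20 AP-like arrays under the common median of 175, 8 of E11 and 12 of E16, the median difference of the members was -1.17, against -0.08 over all genes, and 9 were lower, against 5.13% of all genes. In the brighter arrays, 15 of E11 and 5 of E16, it was -1.23, against -0.04 over all genes, and 9 were lower, against 4.67%. The 9 counted there were partly others, since 7 of the 9 from all cells were counted in the dimmer arrays and 5 in the brighter ones. Without the cells 42P and 81E the median difference was -1.54, against -0.09 over all genes, with 11 members lower, the 9 included, against 4.32% of all genes. Lists of G1/S and G2/M genes differed too, with medians of -1.01 (9 of 20 lower) and -0.86 (5 of 19 lower). Within the E11 AP-like cells the mean of the members had an r of 0.33 with the G1/S list and 0.01 with the G2/M list, and within the E16 AP-like cells -0.01 and 0.16. The part of brightness and of cell cycle genes in the difference was not tested. The AP marker list had a median difference of 0.76, the IP list of -0.33, the neuron list of 0.97 and housekeeping genes of -0.28. The blood list stood at -1.19, microglia at 0.59, vessels at 0.13 and mesenchyme at 1.15, with 4, 2, 2 and 1 genes past the filter.

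**Figure D3:**
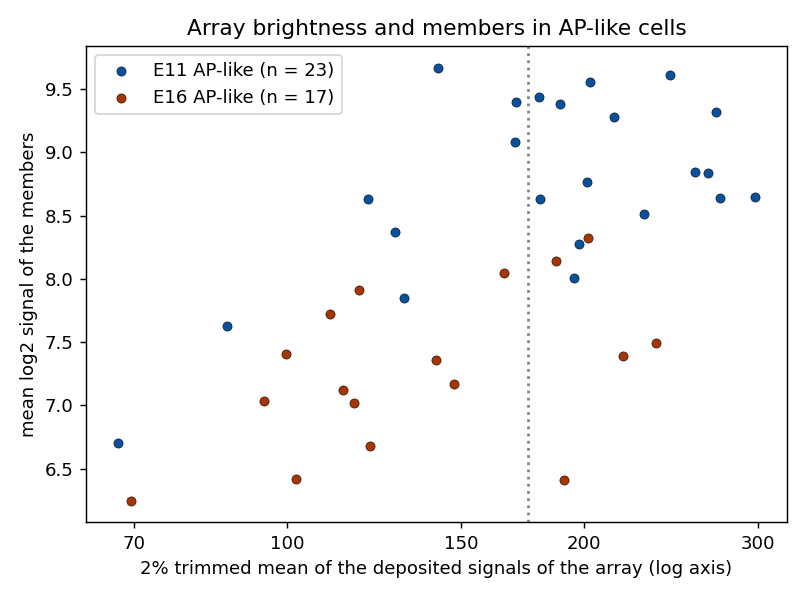
Mean log2 signal of the 38 members against the 2% trimmed mean of the deposited signals of each array, on a log axis, for the AP-like cells. The dotted line marks the median brightness of 175. Most E11 cells lie above most E16 cells on both sides of it, while the members' mean tends to be higher in brighter arrays (r of 0.60 in E11 and 0.49 in E16).

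Over all cells of each stage, whatever their class, 2 members were lower, Polr1c and Nhp2, against 2.43% of all genes, and the median difference was -0.89, against -0.06 over all genes. Imp3 was then higher, where 1.51% of all genes were. The E11 group then held 6 more cells and the E16 group 11 more. Dkc1 turned to 0.10 higher in E16 in that setting.

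Other factors of ribosome biogenesis, 120 genes listed apart from the members and 112 of them past the filter, had a median difference of -1.12 between E16 and E11 AP-like cells. Of these 112 genes 90 were below 0, 11 were counted as lower and 0 as higher, where 4.33% of all genes were lower and 2.22% higher. The largest of those counted were Wdr3 (-6.29, at the phe level in 17 of 23 E11 and 1 of 17 E16 cells), a processome protein, the helicases Ddx54 (-3.36) and Ddx18 (-2.38), Wdr46 (-2.59) and Rsl1d1 (-2.35). Of the 11 genes of the Myc network, with a median difference of -0.09, 1 was lower, namely Mycn, the MYC family member of neural progenitors, at -3.44. Mycn reached the phe level in 22 of 23 E11 and 6 of 17 E16 AP-like cells.

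The E-box CACGTG, the letters bound by MYC and MAX among other factors, was looked for in promoters from RefSeq (GRCm38.p6), 250 bases before to 50 after the start of each gene. The letters read the same on both strands. Of the 31 members with a promoter in that table, 7 held it (22.6%), against 8.91% of 17492 protein-coding genes with one and 11.9% of the 8604 genes that also passed the filter on signals. The match is a description of the letters and not of binding. The 7 sites are shown with their flanks on the strand of the gene, with the E-box in capitals. They lie at chr1:34439698-34439723 (Imp4), chr6:125131813-125131838 (Nop2), chr11:93885771-93885796 (Utp18, minus strand), chr11:3963967-3963992 (Pes1), chr17:71616222-71616247 (Wdr43), chr10:88826765-88826787 (Utp20, minus strand) and chr11:17211540-17211562 (Pno1, minus strand). The E-box begins 121, 60 and 20 bases upstream of the start in Imp4, Nop2 and Utp18, and 2, 17, 37 and 37 bases downstream of it in Pes1, Wdr43, Utp20 and Pno1.
Imp4: ggtcttagacCACGTGacatcccaaa
Nop2: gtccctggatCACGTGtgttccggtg
Utp18: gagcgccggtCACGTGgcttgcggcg
Pes1: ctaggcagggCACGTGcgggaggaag
Wdr43: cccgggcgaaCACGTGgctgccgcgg
Utp20: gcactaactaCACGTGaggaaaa
Pno1: tacaaccacgCACGTGttcctct
Of these 7 genes, Pno1 was the one counted between E16 and E11 AP-like cells. Pes1 had a higher mean in E16, though under the phe level in both classes.

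Across the 57 E11 and E16 cells, the genes outside the member list whose log2 signal followed the mean of the members most closely were Cdca7 and Timm8a1 (Pearson r of 0.69 each), Rbm20 (0.67), Hmga2 and Gja1 (0.66 each), Ppan, Anp32b and Rps6ka6 (0.65 each), Srm (0.64) and Nol7 (0.63), against a median of 0.04 over all genes. These cells differ in stage, class and array brightness, so the values mix those differences and describe only a common order of cells. Ppan, a large subunit factor, was on the list of other factors, and Srm encodes spermidine synthase. Cdca7, a MYC-responsive gene of dividing cells, had means of 11.49 in E11 and 10.30 in E16 AP-like cells, and Hmga2, a chromatin protein of early neural progenitors, 12.57 and 4.78. Within a class the median r between pairs of members was 0.05 in the 23 E11 AP-like and 0.02 in the 17 E16 AP-like cells.

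At E16, few of these factors were counted between IP-like and AP-like cells. IPs are the progenitors that leave the ventricular surface and divide to give neurons. The median difference of the members, IP-like minus AP-like, was 0.31, against -0.03 over all genes, with 21 members above 0 and 17 below. Counted as higher were Imp3 and Fbl, 2 of 38 members against 2.99% of all genes, and counted as lower was Gar1, against 3.11%. Imp3, a processome protein bound to U3, ran from 10.18 to 12.75 with a median of 12.12 in the 9 IP-like cells and from -0.46 to 12.46 with a median of 11.29 in the 17 AP-like cells. It was at the phe level in 9 of 9 IP-like (exact 95% interval 66.4 to 100.0%) and 13 of 17 AP-like cells (76.5%, 50.1 to 93.2). Most AP-like cells overlapped the IP-like cells, and the difference of means of 1.93 was smaller than the SD of 3.52 in AP-like cells. Fbl was higher by 1.26 (SD 2.66 in AP-like cells) and at the phe level in 8 of 9 against 14 of 17 cells, and Gar1 differed by -1.84 (SD 3.71 in IP-like and 2.03 in AP-like cells) and was at that level in 4 of 9 against 12 of 17, also within the spread. With medians over cells Wdr75 was counted in place of Fbl and Imp3, and the median difference of the members was 0.07. Without the AP-like cell 81E the median difference was 0.27 and these 3 members were still those counted. Among the other factors Nop53 was higher by 2.82 (at the phe level in 9 of 9 IP-like and 11 of 17 AP-like cells) while Exosc8, an exosome subunit, stood at -3.44. Mycn differed by 1.15 and was not counted, with 6 of 9 IP-like and 6 of 17 AP-like cells at the phe level.

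At E11 the comparison rests on 2 IP-like cells, 41G and 42M. The median difference of the members from the 23 AP-like cells was -2.53, against -0.29 over all genes, and 9 members were lower and 0 higher, where 4.92% of all genes were lower and 8.43% higher. The cell 45O, whose IP list stood above its neuron list, stayed in the neuron-like class and is not among them. Its mean over the members was 7.39, against 5.41 in 41G and 6.85 in 42M, and the comparison was not made with it. Dkc1 was 4.05 in 41G and 1.05 in 42M, under the lowest E11 AP-like cell at 8.95, and its AP-like mean lay 3.30-fold above the phe level. Fbl was 4.42 in 41G and 10.47 in 42M, the latter just under the lowest AP-like cell at 10.49. Nop56 was 10.42 and 9.82, at the phe level in both cells but under the AP-like mean of 11.74. Pno1 was 6.09 and 2.08, and Imp3 1.71 and 9.31. The others counted were Ddx21 (-4.63), Gar1 (-3.18) and Gnl3 (-3.09), and 3 members, Fbl, Dkc1 and Wdr12, did not overlap between the classes, against 2.6% of all genes. In contrast Npm1 (13.65 and 13.16) and Polr1c (10.92 and 11.89) were within the AP-like range in both cells. Nhp2 (11.17 and 11.71) was at the phe level in both but under the AP-like mean of 12.02. Without 41G, with 42M as the only IP-like cell left, the median difference was -1.09, so the size of this comparison rests on 1 cell. Without the AP-like cell 42P the median difference was -2.52, with 10 members lower, the 9 and Tcof1, against 4.95% of all genes. Rrs1, lower by the mean of both cells at -2.91, was 11.54 in 41G and 2.61 in 42M, and turned to 1.55 higher without 42M. Mycn was at the phe level in neither cell.

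The neuron-like cells kept some members. Polr1c lay between 10.67 and 12.37 in the 4 E11 neuron-like cells and was 11.91 and 11.15 in the 2 of E16, so all 6 were above the phe level and within the range of E11 AP-like cells. Npm1 was 9.91, 11.61, 11.83 and 13.17 at E11 and 11.66 and 11.90 at E16, mostly under the E11 AP-like range. Dkc1 was 12.42 and 12.48 in the E16 neuron-like cells, but 11.26, 5.03, 3.74 and 2.21 in those of E11. Ncl was under the phe level in each of the 4 E11 neuron-like cells, at 0.22, -0.75, -0.09 and 9.60. Mycn was above the phe level in the 2 E16 neuron-like cells, at 10.36 and 11.92, and in 1 of the 4 of E11, so it did not follow the members in every class.

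**Figure D4:**
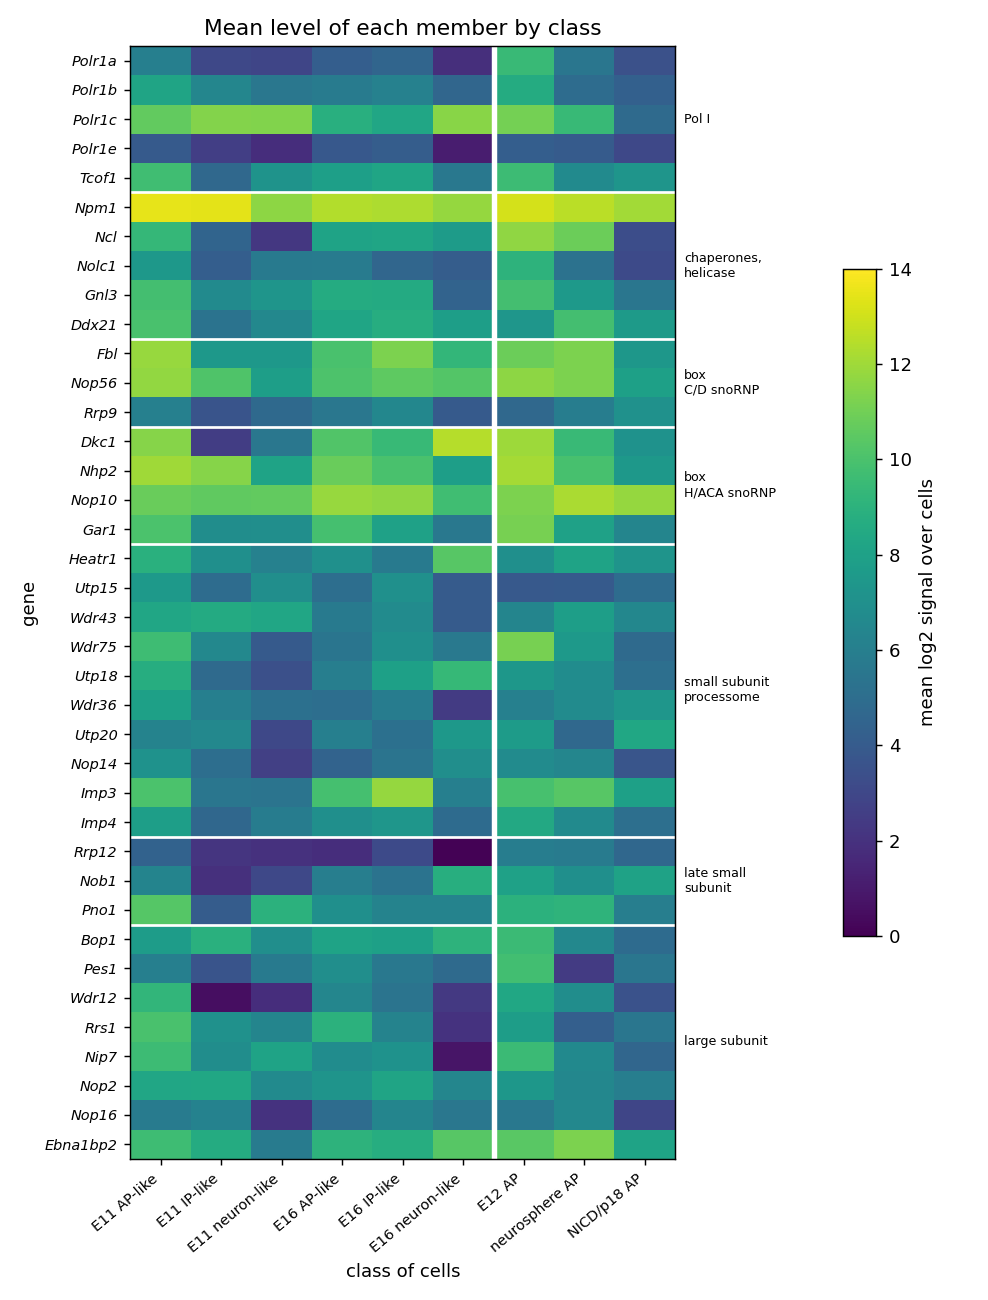
Mean log2 signal of each of the 38 members (rows, grouped by role) in each class of cells (columns), with the 10 separately scaled arrays to the right of the white line. E11 AP-like cells carry signal across most roles, as do E12 APs among the separately scaled arrays, and Npm1 stays bright in every class.

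In the second set of arrays, 10 members were at the phe level in all 3 E12 APs, namely Polr1c, Npm1, Ncl, Fbl, Nop56, Dkc1, Nhp2, Nop10, Gar1 and Wdr75. Levels of these cells are not set against E11 or E16 cells, because their arrays were scaled to another mean.

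The 4 NICD/p18 APs had the fewest factors, with 9, 11, 4 and 9 members at the phe level in M5A, M5K, M6C and M6H, against 17, 19 and 22 in the E12 APs. The median difference of the members was -2.86, against -0.15 over all genes. By the rule above 13 members were lower and 0 higher, where 10.5% of all genes were lower and 5.14% higher. Among genes with a mean at the phe level in either group, 13 of 14 members were lower, against 46.2% of all such genes. In 11 of the 38 members the cells of the groups did not overlap, against 11.3% of all genes. Without E12 replicate 1 the median difference was -2.98 and 15 members were lower, 10 of the 13 among them, against 12.6% of all genes.

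Among these members, Ncl was 12.08, 11.67 and 11.23 in the E12 APs and 10.79, -0.65, 4.10 and -1.05 in M5A, M5K, M6C and M6H, so every NICD/p18 cell lay below every E12 cell. Its difference of means was -8.36, the E12 mean lying 3.84-fold above the phe level and the NICD/p18 mean under it. Polr1c was 10.82, 10.47 and 11.90 in E12 APs and 4.47, 5.94, 7.99 and 0.99 in the NICD/p18 APs, with a difference of -6.21 and no overlap. Nop56 was 11.61, 11.60 and 11.64 against 1.96, 11.01, 9.43 and 9.51, so that M5K came close to the E12 cells. Nhp2 was 12.35, 12.13 and 11.85 against 5.21, 11.33, 3.89 and 9.40, a difference of -4.65. Npm1 was 13.55, 13.21 and 12.60 against 12.12, 11.60, 12.38 and 12.19, a 2.06-fold difference with no overlap. The others counted were Wdr75 (-6.27), Dkc1 (-4.82), Gar1 (-4.76), Gnl3 (-4.32), Pes1 (-4.24), Fbl (-3.40), Ebna1bp2 (-2.24) and Imp3 (-1.97). Nop10 was unlike the rest, at 11.32, 11.27 and 11.06 in E12 APs and 10.67, 12.85, 12.43 and 11.16 in the NICD/p18 APs.

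Without M5K and M6C, the cells with high neuron markers, the median difference was -3.02. Then 11 of the 13 members were lower, against 10.5% of all genes, Ebna1bp2 and Npm1 being lost. Utp20 and Wdr36 were higher, 2 of 38 members against 8.76% of all genes. The G2/M list stood at a median difference of -7.54 with 15 of 19 genes lower, and the G1/S list at -3.03 with 12 of 20 lower. The E12 APs had been chosen as Ki67 positive, and the part of that choice in these differences was not tested. The neuron list stood at a median difference of 2.93 with 4 of 14 genes higher and 0 lower. The signals of the spikes were also higher in the NICD/p18 arrays, with mean log2 signals of 11.41 against 9.55 in E12 APs for phe and of 13.71 against 12.76 for lys. The part of the cell cycle genes, the neuron genes and the spike signals in the result was not tested. Of the 112 other factors, 29 were lower and 2 higher, with a median of -2.20, where 10.5% of all genes were lower and 5.14% higher. The largest of those counted were Exosc1 (-8.41), an exosome subunit, Gtpbp4 (-6.55), Pa2g4 (-6.04), Nufip1 (-6.01) and Mdn1 (-5.97), and those higher were Eif6 (1.27), which keeps the large subunit from joining too early, and the helicase Ddx54 (1.05). Mycn differed by -7.09.

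Neurosphere APs lay between these groups with a wide spread, at 9, 16 and 16 members at the phe level in W2G, W2O and W6D. Against the E12 APs the median difference was -0.85, against -0.05 over all genes, and 7 members were lower and 1 higher, where 7.16% of all genes were lower and 5.67% higher. Pes1 was 9.91, 9.92 and 9.39 in E12 APs and 0.66, 3.97 and 2.70 in neurosphere APs, with no overlap. Its E12 mean lay close to the phe level, at 1.01-fold above it. Wdr75 was 10.81, 12.13 and 10.42 against 7.97, 4.26 and 10.32, just without overlap, and Polr1c 10.82, 10.47 and 11.90 against 9.74, 8.37 and 10.16. Gar1 (-3.08), Dkc1 (-2.47), Gnl3 (-2.27) and Nhp2 (-2.20) were lower with overlap, and Ddx21 was higher by 2.47. Nop10 and Polr1b also did not overlap, with differences of 1.00 and -3.66, but were not counted. The 5 of 38 members without overlap stand against 11.3% of all genes, a similar share. Without E12 replicate 1 the median difference was -1.45, with 10 members lower, 5 of the 7 among them, against 9.24% of all genes. Ddx21, Fbl and Nop10 were then higher, against 5.07% of all genes. Without W6D the sign of Dkc1 turned, to 0.088. Fbl, Nop56 and Imp3 reached 12.49, 12.11 and 10.55 in their highest neurosphere cells, within or above the E12 range. Of the 112 other factors 20 were lower and 5 higher, with Utp11 at -6.24 and Taf1c, a polymerase I initiation factor, at 7.52. Mycn, of the Myc network list, differed by -8.39. W6D had the lowest mean over the AP marker list, 8.14, against 10.43 in W2G and 9.18 in W2O.

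Set against the neurosphere APs, which share their array scaling and their 3 days since E11, the NICD/p18 APs had 7 members lower and 0 higher, where 9.32% of all genes were lower and 5.06% higher. The median difference was -1.69, against -0.12 over all genes. Ncl (-7.58), Fbl (-3.80), Nop56 (-3.28), Ebna1bp2 (-3.08), Nhp2 (-2.46), Imp3 (-2.42) and Ddx21 (-2.20) were lower. Only Ncl and Fbl of these differed by more than both SDs, and Ebna1bp2 did not overlap, with 10.65, 12.20 and 10.82 in neurosphere APs and between 3.49 and 10.20 in NICD/p18 APs. Polr1c (-4.58) and Polr1a (-2.03) did not overlap either, with means under the phe level in both groups. These 3 of 38 members stand against 9.52% of all genes, a similar share. Without W2O the median difference was -0.70, so that its size rests on that cell. Without M5K and M6C it was -1.74 with 8 lower, the 7 included, against 9.33% of all genes. Utp20 and Wdr36 were then higher, 2 of 38 members against 9.03% of all genes. The G2/M list had a median difference of -7.56 with 17 of 19 lower, and the neuron list of 3.41 with 3 of 14 higher. Of the 112 other factors 11 were lower and 3 higher, among them Taf1c (-8.97) and Eif6 (3.15). Against 9.32% and 5.06% of all genes, the lower ones are a similar share and the higher ones no larger share. This comparison shares its NICD/p18 cells with the one before and its neurosphere cells with the other, so the 3 are not independent.

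**Figure D5:**
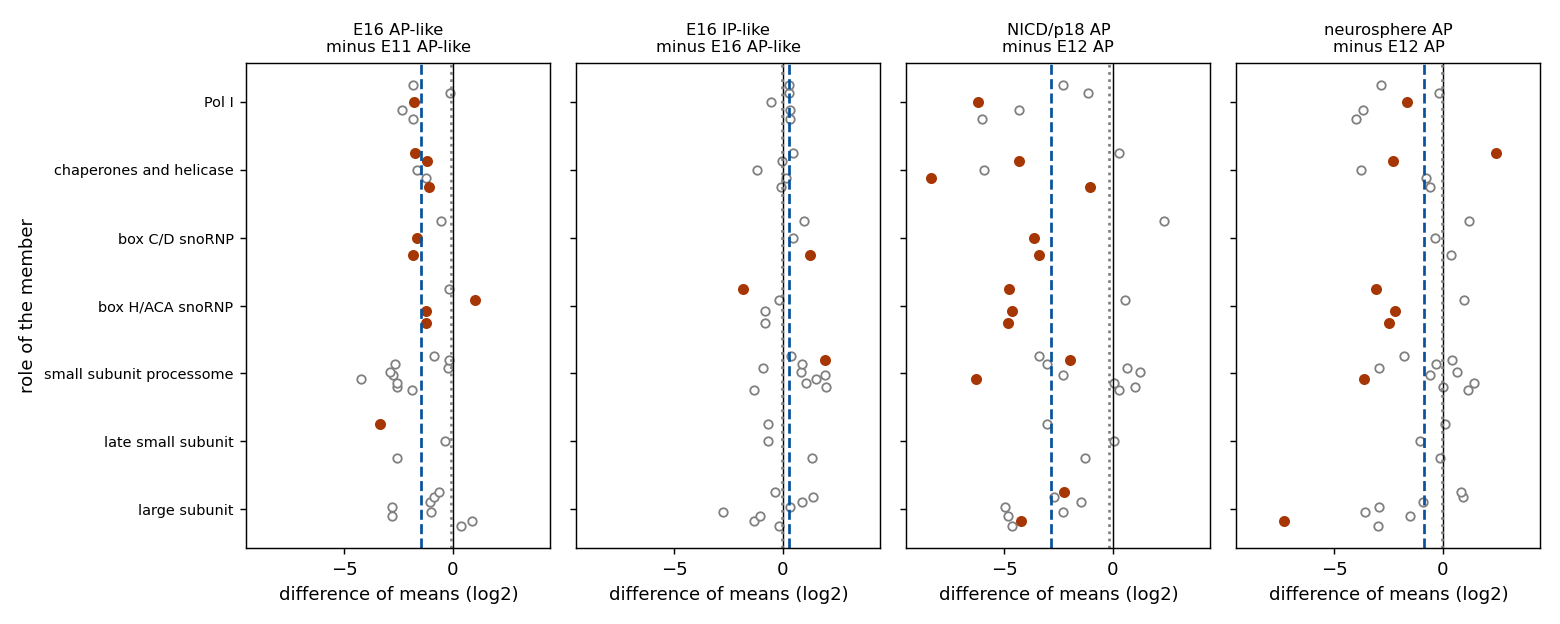
Difference of mean log2 signals for each member, grouped by role, in 4 comparisons. Filled points passed the rule on size and level, open points did not, the blue dashed line is the median of the members and the grey dotted line that of all genes. The members lie mostly below 0 for E16 against E11 AP-like cells and for NICD/p18 against E12 APs, and on both sides of 0 for E16 IP-like against AP-like cells.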

How the data were processed

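The values deposited by the authors are signal intensities on a linear scale from MAS5, 1 column per cell and 45101 probe sets, and columns of other samples numbered 0. The study's methods also name quantile normalization, which the deposited values do not carry: their 2% trimmed mean was 500.0 in each of the 10 arrays of E12, neurosphere and NICD/p18 cells and lower, and different, in the other 58. All 68 arrays were therefore quantile normalized together and log2 transformed with no offset, and differences were counted only within the 58 or within the 10. Of the probe sets, 34958 have 1 gene in the platform annotation, 932 several, and 9211 are missing from it. Those that reached the phe level in at least 1 cell, 20721, were kept. Where a gene had several, the one with the greatest average log2 signal stood for it. All members could be named, with full values for up to 6 counted in each direction and for the 5 with the highest mean, and beside them up to 5 counted other factors in each direction and the 10 genes most like the members.

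Classes came from complete linkage on 1 - r over the marker lists, with 3 clusters per stage. The E16 neuron-like pair had no listed marker among its 10 leading genes, which included Snap25 and Tubb3. The members and lists were chosen with earlier results of these data known. Cells are not replicates, so no p-value was computed, and the number of arrays limits the precision. Known shifts added to simulated, normally distributed signals were run through the difference of means only. Such signals do not copy the split values of members such as Ncl, and the counting rule itself was not tested. Alternatives were other scalings, offsets, filters, probe sets and cells left out. Those without M5K and M6C, without the cells with blood or microglia markers in any AP-like class, by array brightness and with medians were chosen after seeing the data. Python 3.11.15, numpy 2.4.6, pandas 2.3.3, scipy 1.17.1 and matplotlib 3.10.9 were used.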

Additional observations from a re-analysis of the deposited data

Results flagged for a closer look

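In the 4 E11 neuron-like cells, the mean log2 signal of the members was 7.39 in the cell 45O, while the next highest was 5.51, a gap of 0.850 of the whole range. The number of members at the phe level in the same class was 10 in the cell 30F and 9 in each of the other 3. These were the 2 found among 23 groups of values searched for a single cell far from the rest, and chance alone flags about 1 in 20 groups. Both come from the same 4 cells, and the second is a step of 1 between whole numbers, so they are not separate finds. The cell 45O also had a mean of 12.41 over the G2/M list, against 3.73 to 6.03 in the other 3 cells, and of 10.70 over the IP marker list. Its mean over the neuron marker list, 8.19, was below that, and its Eomes signal was 13.23, so the markers of this cell go against the name of its class. Without it the members' means of the class lie between 5.18 and 5.51. The part of the markers and cell cycle genes in the result was not tested.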

How the results depend on the processing

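For E16 minus E11 AP-like cells the median difference of the members was -2.27 with arrays scaled to the lys spike, where 14 were lower, and 2 were lower over all cells of each stage, where Dkc1 turned to 0.10. The number higher was 0 as deposited, with lys scaling, with an offset of 100, with the mean of probe sets, with 31i, with medians, without the blood and microglia cells and in dimmer arrays, and 2 in brighter ones. The median of all genes moved from -0.10 to -0.47 as deposited and to -0.70 with lys scaling, while the median of the members minus that of all genes was -1.59 and -1.56, against -1.34. The share of all genes counted was not computed for the other scalings, the offset, the probe set choices and most single cells left out. Counts of members under those settings may move with the whole array and are not results about the members.

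For E16 IP-like minus AP-like cells 1 member was higher with the offset and with medians, and 0 were lower as deposited, with lys scaling, with the offset and without _s_at and _x_at probe sets. For E11 IP-like minus AP-like cells the median was -1.24 with the offset, 14 were lower with lys scaling or the offset, and 1 was higher with a common trimmed mean or the mean of probe sets. Leaving out 1 of its 2 IP-like cells gave medians from -2.99985 to -1.09 and Rrs1 from -7.38 to 1.55.

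For neurosphere minus E12 APs, 3 members were higher as deposited and with lys scaling, 2 with a common trimmed mean, with the mean of probe sets and without _s_at and _x_at probe sets, and 0 when the sets were quantile normalized separately. Lower were 15 as deposited and 11 with lys scaling. Leaving out 1 cell gave 1 to 5 higher, 6 to 11 lower and Dkc1 from -3.84 to 0.088, the last without W6D. For NICD/p18 minus E12 APs the median was -1.32 with the offset, 22 were lower as deposited and 8 with separate normalization, and 2 were higher without M5K and M6C. Leaving out 1 cell gave 0 to 1 higher. For NICD/p18 minus neurosphere APs the median was -2.73 with lys scaling and -0.68 with the offset, 2 were higher as deposited and without M5K and M6C, and lower were 12 as deposited and with lys scaling, 4 with separate normalization and 2 with the mean of probe sets. Leaving out 1 cell gave medians from -2.51 to -0.70 and 0 to 1 higher. With lys scaling the median over all genes was -1.22 in this comparison. The causes were not tested.

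Over the medians and counts, 210 values stayed within the limits set and 54 moved, and of single members' differences 723 stayed, 28 moved and 3 changed sign. No paired analysis was possible because the results come from no test and the cell numbers name no shared embryo. About 9.95% of probe sets per array reached the phe level, so means of weakly expressed factors lie under the level at which differences were counted.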
